A study of Mus musculus with 3 samples.

Results

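The class II genes of the major histocompatibility complex (MHC) and their assembly factors were followed across tissue macrophages of 3 mouse organs, the heart, liver and kidney. The set was given as 10 gene symbols, H2-Aa, H2-Ab1, H2-Eb1, Cd74, H2-DMa, H2-DMb1, H2-DMb2, H2-Oa, H2-Ob and Ciita. All 10 were found among 24453 genes of the table, and all 10 belonged to the 11482 genes with at least 1 RPKM in some library (reads for each kilobase of exon in 1000000 counted reads). The cells came from C57BL/6 mice of 8 weeks in the steady state and were sorted as CD11b+ F4/80+ Ly6G- Ly6C-. They are named cardiac tissue macrophages, hepatic Kupffer cells and renal tissue macrophages. Each tissue gave 1 library, and how many animals were pooled is not given in the labels. The labels name no altered gene and no treatment. All 10 macrophage markers (Adgre1, Csf1r, Fcgr1, Mertk, Cd68, Lyz2, Itgam, C1qa, C1qb and C1qc) had reads in each library, and they summed to 2264 RPKM in heart, 2755 in liver and 2484 in kidney, with Lyz2 the most abundant at 630.5, 626 and 428 RPKM. Single markers were less even than these sums. In heart, liver and kidney Adgre1 stood at 427, 375 and 394 RPKM, but Mertk at 20.2, 33.1 and 8.68. C1qa was lowest in the heart, at 67.9, 195 and 164 RPKM, and Itgam was highest there, at 93.7, 27.9 and 38.0.

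MHC class II molecules are pairs of an α and a β chain that carry peptides from the endocytic pathway to the cell surface, where CD4+ T cells read them. The invariant chain CD74 fills the groove of a new pair and steers it to the endosome, where proteases trim it to a short fragment. H2-DM then exchanges that fragment for peptide, H2-DO restrains H2-DM, and the coactivator CIITA drives transcription of most of the set through a promoter module of an X box and a Y box. Tissue macrophages vary in class II display, and H2-DO is best known from B cells and some dendritic cells.

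The promoter stretches of the H2 genes are shown because CIITA acts through these boxes, while the levels of the genes differed in unlike ways between the libraries. RefSeq windows (GRCm38.p6, the assembly of mm10, from 250 bases before to 50 after a start) were found for 7 of the 10 genes. The Y box ATTGG, searched on both strands, was in a window of 7 of the 7, and in 37.4% of all 32851 windows. A gene can have several windows, as H2-DMa has, while the share counts single windows. No stretch is printed for H2-DMa, and the position of its match is not given. The X core GNNACNGAT was in 4 of the 7 and in 7.82% of all windows. The X core followed on the same strand by ATTGG after 10 to 40 bases was in the windows of H2-Eb1 and H2-DMb1, and in 0.198% of all windows. A looser core, AACNNNTGA, chosen after the windows had been seen, was followed by ATTGG in 4 of the 7 (H2-Eb1, H2-DMb1, H2-DMb2 and H2-Ob) and in 0.368% of all windows. It overlaps the first core in H2-Eb1 and H2-DMb1. The stretches below run 5′ to 3′ on the gene's strand, with the Y box and, where present, the looser core in capitals.
H2-Aa: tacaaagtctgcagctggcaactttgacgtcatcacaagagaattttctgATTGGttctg
H2-Eb1: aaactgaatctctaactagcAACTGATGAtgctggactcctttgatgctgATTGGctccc
H2-DMb1: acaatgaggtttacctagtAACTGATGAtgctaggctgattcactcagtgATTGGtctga
H2-DMb2: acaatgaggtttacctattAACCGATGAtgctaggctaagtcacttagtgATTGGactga
H2-Ob: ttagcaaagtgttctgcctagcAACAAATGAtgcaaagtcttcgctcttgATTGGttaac
H2-Oa: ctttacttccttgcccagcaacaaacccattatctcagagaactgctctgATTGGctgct

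These lie at chr17:34287862-34287921 on the minus strand for H2-Aa, and on the plus strand at chr17:34305758-34305817 for H2-Eb1, chr17:34153080-34153139 for H2-DMb1, chr17:34145109-34145168 for H2-DMb2, chr17:34238798-34238857 for H2-Ob and chr17:34092286-34092345 for H2-Oa. The Y box began 48 bases before the annotated start in H2-Aa, 59 in H2-Eb1, 61 in H2-DMb1, 90 in H2-DMb2, 57 in H2-Ob and 43 in H2-Oa. The gap between the looser core and the Y box was 21 bases in H2-Eb1, 22 in both H2-DMb genes and 19 in H2-Ob. These letter matches describe the windows and do not show that a factor was bound.

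All 10 genes had their highest level in the kidney library. Among the 11482 genes compared, 37.3% were highest in the kidney, 39.2% in the liver and 23.5% in the heart library. The second place differed between the genes. The heart library came second for H2-Aa, H2-Ab1, H2-Eb1, Cd74 and H2-Ob, and the liver library came second for H2-DMa, H2-DMb1, H2-DMb2, H2-Oa and Ciita. The 95% Poisson intervals of neighbouring levels overlapped for none of the 10 genes, but they cover counting error only, since copies made by PCR were not told apart and no second library shows how animals vary. The order held with each scaling tried except for H2-Aa, whose kidney and heart levels changed places with median ratio scaling. The 3 libraries held 14460631 (heart), 16743416 (liver) and 15550832 (kidney) reads over all transcripts, recovered from the steps of the low values. In such bulk samples, fewer cells with a transcript and less of it per cell cannot be told apart.

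**Figure D1:**
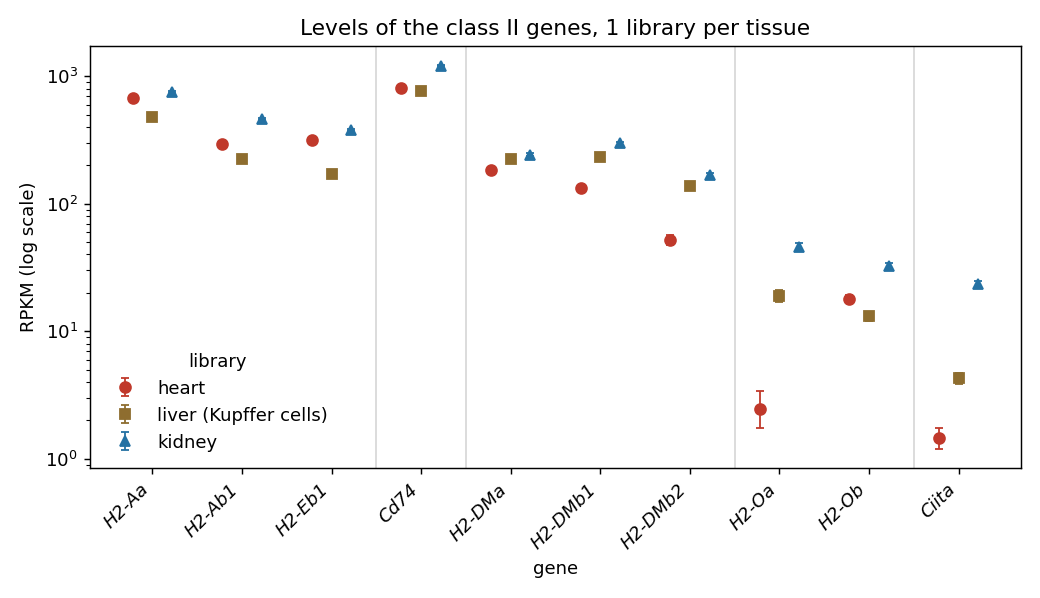
RPKM (log axis) of the 10 class II genes in heart, liver and kidney, grouped from left to right into classical chains, invariant chain, H2-DM, H2-DO and Ciita. Points are single libraries and bars are 95% Poisson intervals. The kidney point is the highest for each gene, and the spread between libraries is widest for H2-Oa and Ciita.

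The classical chains form the peptide-presenting molecule itself, H2-Aa and H2-Ab1 as the α and β chain of I-A and H2-Eb1 as the β chain of I-E. H2-Aa had 671 RPKM in the heart (95% interval 658 to 684), 478 in the liver (468 to 488) and 751 in the kidney library (738 to 764), where it ranked 4, 9 and 3 among all genes. H2-Ab1 stood at 295 RPKM in the heart (287 to 304), 226 in the liver (219 to 232) and 461 in the kidney library (451 to 471). H2-Eb1 stood at 314 RPKM in the heart (307 to 321), 172 in the liver (167 to 177) and 379 in the kidney library (372 to 387). Kidney was thus high and liver low for each of the 3 chains, with heart between them. The kidney to liver ratio of RPKM was 1.57 for H2-Aa (counting interval 1.53 to 1.61), 2.04 for H2-Ab1 (1.97 to 2.12) and 2.20 for H2-Eb1 (2.13 to 2.28). Together the 3 chains summed to 1280.0 RPKM in heart, 876 in liver and 1591 in kidney.

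The partner of H2-Eb1 was all but missing from these libraries. H2-Ea-ps, the Eα gene that is inactive in C57BL/6 mice so that no I-E reaches the surface, had 0 reads in heart, 0 in liver and 2 in kidney. H2-Eb2, a further Eβ-like gene beside it, stood at 1.05 RPKM (heart), 0.46 (liver) and 2.31 (kidney). H2-Eb1 was therefore measured at the level of a classical chain while transcript of its α chain was at or below the floor of 3 reads.

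H2-DM is the peptide exchange catalyst of the late endosome, made of an α chain from H2-DMa and a β chain from H2-DMb1 or H2-DMb2. H2-DMa was the most even of the 10 genes, at 183 RPKM in the heart (178 to 189), 224 in the liver (218 to 229.7) and 243 in the kidney library (237 to 249). H2-DMb1 stood at 132 RPKM in the heart (127 to 138), 231 in the liver (225 to 238) and 299 in the kidney library (291 to 306). H2-DMb2 stood at 52.0 RPKM in the heart (47.9 to 56.4), 138 in the liver (132 to 145) and 168 in the kidney library (161 to 176). The heart library was thus low for both β chains, and liver and kidney stood close together. Kidney exceeded heart 1.33-fold for H2-DMa (1.28 to 1.38), 2.25-fold for H2-DMb1 (2.15 to 2.36) and 3.23-fold for H2-DMb2 (2.95 to 3.55). The β chain genes are near copies. Of the stretches of 50 bases in an H2-DMb1 transcript, 27.2% also occur in H2-DMb2, so reads may have been shared between them and the level of each is uncertain. For H2-DMb2, 32.8% of such stretches also occur in other genes, 297 in number. H2-DMb2 is also measured over a short transcript of 779 bp, against 1276 bp for H2-DMb1.

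H2-DO, which binds H2-DM and lowers its activity, needs the α chain from H2-Oa and the β chain from H2-Ob. H2-Oa stood at 2.46 RPKM in the heart (1.73 to 3.38, 37 reads), 19.0 in the liver (16.98 to 21.1, 331 reads) and 45.5 in the kidney library (42.3 to 48.9, 738 reads). H2-Ob stood at 17.9 RPKM in the heart (16.6 to 19.3), 13.1 in the liver (12.1 to 14.2) and 32.8 in the kidney library (31.1 to 34.6). The chains did not follow each other, for the heart library was far the lowest in H2-Oa but stood above liver in H2-Ob. H2-Oa was 18.5-fold higher in kidney than in heart (counting interval 13.3 to 26.5) and 7.73-fold higher in liver than in heart (5.49 to 11.2). H2-Ob was 1.83-fold higher in kidney than in heart (1.67 to 2.01) and 2.498-fold higher in kidney than in liver (2.27 to 2.76). H2-Oa shares 22.8% of its exon bases with BC051537, a noncoding gene on the opposite strand, and reads were counted on both strands. All of BC051537 held 6, 60 and 109 reads in heart, liver and kidney, fewer than H2-Oa in each.

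Ciita encodes the class II transactivator, the factor on which transcription of the classical chains depends. It stood at 1.45 RPKM in the heart (1.20 to 1.73, 118 reads), 4.29 in the liver (3.88 to 4.72, 405 reads) and 23.6 in the kidney library (22.6 to 24.6, 2071 reads). Kidney was far above both other libraries, and the heart was lowest. The kidney level was 16.3-fold that of the heart (counting interval 13.5 to 19.8) and 5.51-fold that of the liver (4.95 to 6.14), and the liver level was 2.96-fold that of the heart (2.41 to 3.67). The classical chains did not follow this order, as heart exceeded liver for H2-Ab1 and H2-Eb1. The gene lies on chromosome 16, 10480072 to 10527640 of mm10. Dexi, which shares 3.45% of the Ciita exon bases on the opposite strand, held 14, 0 and 0 reads.

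The Ciita gene has alternative first exons, known as promoter I of dendritic cells and macrophages, promoter III of B cells and plasmacytoid dendritic cells, and promoter IV, which answers to interferon-γ. Transcript rows in the table begin at 10480072, 10488178 and 10489781, in the order of these promoters, and each has 5062 bp after its first exon. A transcript's reads minus those of the lowest transcript are therefore a lower limit for the reads of its first exon. For the most upstream first exon, of 355 bp, this limit was 1 read in heart, 23 in liver and 97 in kidney. In the kidney that is at least 0.273 reads per bp, beside 0.382 over the whole transcript. For the most downstream first exon, of 84 bp, the limit was 0 reads in heart, 2 in liver and 10 in kidney. The middle transcript was the lowest, or equal to the lowest, in each library, so its first exon has no limit above 0. Reads of the upstream first exon were thus seen in kidney and liver, and the limit of 1 read in the heart leaves its use there undecided. The longest row includes a further 227 bp, which held 6 reads in the heart and 0 in the liver and the kidney library.

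Cd74 was the gene with the highest RPKM in the heart and the kidney library and ranked 3 in the liver library. It stood at 814 RPKM in the heart (802 to 827), 764 in the liver (753 to 775) and 1209.8 in the kidney library (1195 to 1224). Heart and liver were thus close, at a ratio of liver to heart of 0.938 (0.918 to 0.958), and kidney stood 1.49-fold above heart (1.46 to 1.51). Cd74 lies on chromosome 18, 60803849 to 60812652. The long form of the invariant chain, p41, carries an additional exon of 192 bp that encodes a thyroglobulin-type domain known to bind cathepsins, and the short form p31 lacks it. From the difference between the long and the short transcript row, this exon held 1467 reads in heart, 1717 in liver and 2390 in kidney. Its read density was 0.615 of that of the short transcript in the heart (0.583 to 0.649), 0.668 in the liver (0.635 to 0.702) and 0.629 in the kidney library (0.602 to 0.656). The ratio was similar in the libraries. It is no share of p41, because coverage along the transcript need not be even and the effect of the limit on tags in dense exons was not tested.

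That limit bears on how far the abundant genes can be compared. Per the file headers at most 3 tags were counted at a position, and 3 on each of both strands would come to 6 per bp. Cd74 had 11.8, 12.8 and 18.8 reads per bp in heart, liver and kidney, and H2-Aa had 9.70, 8.00 and 11.7, so 6 was no plain ceiling here. Differences were nevertheless smaller among the densest genes. For heart against kidney, the median absolute difference of log2(RPKM + 1) was 0.54 over the 838 genes with 0.5 to 1 read per bp and 0.17 over the 124 genes with 4 to 6. It was 0.23 over the 22 genes above 6, which include Cd74 and H2-Aa. For heart against liver it was flat up to 2 reads per bp, between 0.88 and 0.92, and 0.23 at 4 to 6. H2-Oa, H2-Ob and Ciita lay at or below 0.708 reads per bp in every library, and the other 7 genes between 0.752 and 18.8. Cd74 and the classical chains were thus read at densities of over 2 reads per bp, where the median difference over genes was smaller. H2-Ob had 0.258, 0.220 and 0.510 reads per bp in heart, liver and kidney, and H2-Oa 0.0355, 0.318 and 0.708. The part of the limit on tags in the differences between the genes was not tested.

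Relative levels within a library show the unlike course of the subunits without any scaling between libraries, and all ratios here are of RPKM, per length of exon. H2-Aa exceeded H2-Ab1 by 2.27-fold in the heart (2.19 to 2.35), 2.12-fold in the liver (2.04 to 2.20) and 1.63-fold in the kidney library (1.58 to 1.68). The ratio of Cd74 to H2-Ab1 was 2.76 in heart, 3.39 in liver and 2.63 in kidney. H2-DMa exceeded H2-Oa 74.6-fold in the heart (54.0 to 106), 11.8-fold in the liver (10.6 to 13.2) and 5.34-fold in the kidney library (4.95 to 5.77). Transcript of the catalyst thus stood furthest above that of the inhibitor's α chain in the heart. Against the β chain the order differed, with H2-DMa 10.2-fold above H2-Ob in heart, 17.1-fold in liver and 7.42-fold in kidney. H2-Oa was the scarcer H2-DO chain in the heart, at 0.137 of H2-Ob (0.096 to 0.191), and the more abundant one in the liver (1.45) and the kidney library (1.39). H2-Ab1 exceeded Ciita 204-fold in the heart (170.2 to 247), 52.6-fold in the liver (47.5 to 58.4) and 19.5-fold in the kidney library (18.6 to 20.5).

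**Figure D2:**
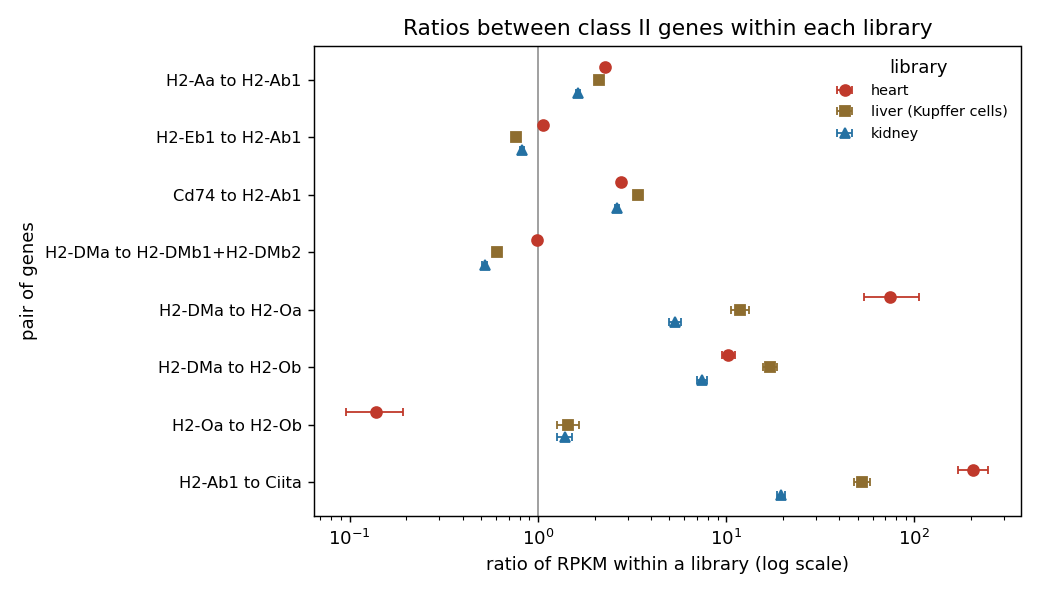
Ratio of RPKM between pairs of class II genes within heart, liver and kidney (log axis), with counting intervals of 95%. The vertical line marks equal levels. The libraries lie close together for the classical chains and Cd74 and far apart for H2-DMa to H2-Oa, H2-Oa to H2-Ob and H2-Ab1 to Ciita.

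Set beside all genes, differences were taken on log2(RPKM + 1), where 2 log2 units are 4-fold and 1 unit is 2-fold on that scale. With 1 library per tissue there is no test, and the counts describe these libraries. For heart against kidney, 2 of the 10 genes (H2-Oa at -3.75 and Ciita at -3.33) were lower in the heart by at least 4-fold, beside 5.10% of all genes, and 0 were at least 4-fold higher, beside 2.40%. At 2-fold, H2-DMb2 (-1.67) and H2-DMb1 (-1.17) joined them, making 4 of 10 lower beside 22.9% of all genes, and 0 higher beside 10.5%. H2-Oa and Ciita lay at percentiles 0.427 and 0.627 of the 11482 differences. The median of the 10 genes was -0.74, against -0.23 over all genes, and all 10 were below 0.

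For kidney against liver, Ciita (2.22) was the 1 gene at least 4-fold higher in the kidney, beside 7.57% of all genes, and 0 were at least 4-fold lower, beside 5.10%. At 2-fold, 5 of 10 were higher in the kidney (Ciita, H2-Ob at 1.26, H2-Oa at 1.22, H2-Eb1 at 1.13 and H2-Ab1 at 1.03), beside 24.2% of all genes, and 0 were lower, beside 17.7%. The H2-DM genes were nearly level, at 0.12 for H2-DMa, 0.28 for H2-DMb2 and 0.37 for H2-DMb1. The median of the 10 genes was 0.84, against 0.03 over all genes. The 7 genes with over 1 read per bp in both the kidney and the liver library were also set beside genes whose mean over those libraries was over 1 read per bp. Of these 7, 2 were at least 2-fold higher in kidney than in liver (H2-Eb1 and H2-Ab1), beside 11.3% of 1290 dense genes, and 0 were lower, beside 17.8%. The median of the 7 was 0.65 for kidney minus liver, against -0.23 over the dense genes. The comparisons of the heart and of the liver library with kidney both use the kidney library, so its high values enter each of them.

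For heart against liver the set split. H2-Oa (-2.53) was at least 4-fold lower in the heart, 1 of 10 beside 7.13% of all genes, and 0 were at least 4-fold higher, beside 5.33%. At 2-fold, 3 of 10 were lower in the heart (H2-Oa, H2-DMb2 at -1.39 and Ciita at -1.11), beside 24.9% of all genes, and 0 were higher, beside 17.9%. H2-Eb1 (0.86), H2-Aa (0.49), H2-Ob (0.42), H2-Ab1 (0.39) and Cd74 (0.09) lay on the other side of 0. With 5 genes on either side of 0, the median of the 10 was -0.10, beside -0.16 over all genes. Scaling mattered here: with median ratio scaling the count at 2-fold was 1 higher (H2-Eb1) and 2 lower, with a sum of 1000000 over genes (TPM) it was 1 and 3. Of all genes, the 2-fold rule called 21.3% higher and 20.3% lower in the heart under the first scaling. Under TPM it called 24.7% and 25.6%. By the 4-fold rule the first scaling gave 6.60% higher and 5.89% lower, beside 0 and 1 of the 10 class II genes. Median ratio scaling and TPM placed the median of all genes at 0.00 and -0.02.

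**Figure D3:**
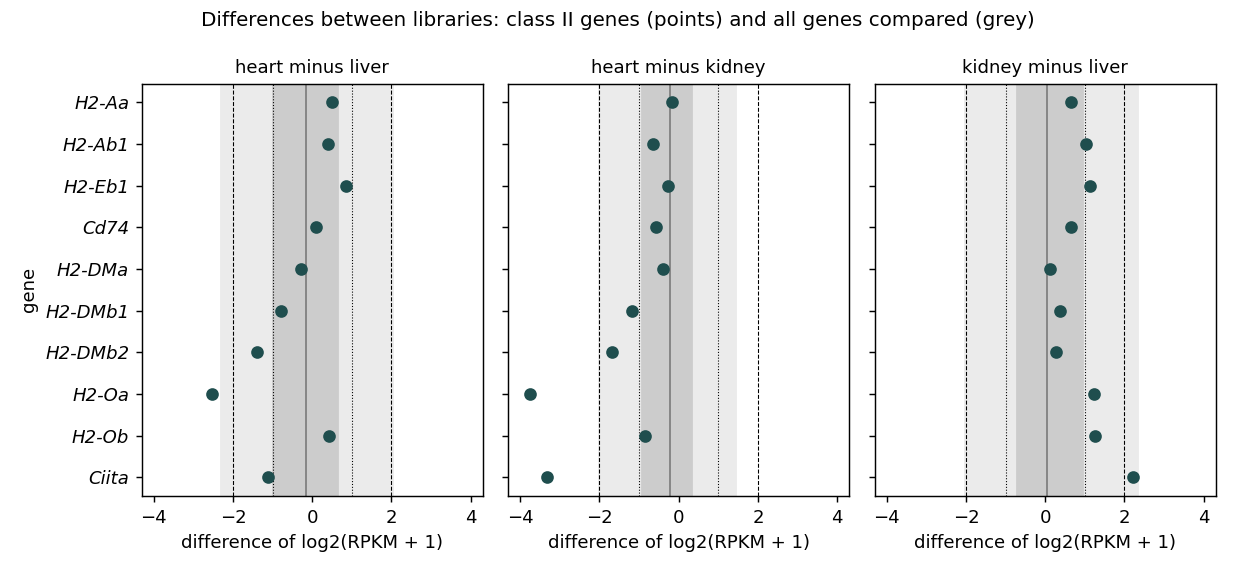
Difference of log2(RPKM + 1) for each class II gene (points) in heart minus liver, heart minus kidney and kidney minus liver. Dark and light grey bands hold the middle 50% and 90% of the 11482 genes compared, the grey line is their median, and dotted and dashed lines mark 2-fold and 4-fold. H2-Oa lies outside the light band in heart minus liver, and H2-Oa and Ciita lie far outside it in heart minus kidney.

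Of the 10 genes, 8 lie in the class II region of chromosome 17. The table holds 8 other genes that lie in or overlap the 252 kb from H2-Oa to H2-Ea-ps (34092379 to 34344645). H2-Oa and H2-Ob stand 146 kb apart, with the H2-DM genes and the class I pathway genes Psmb9, Tap1, Psmb8 and Tap2 between them. Those 4 genes, which cut peptides for class I or carry them into the endoplasmic reticulum, were lower in heart than in kidney by at least 2-fold. With BC051537 they made 5 of the 7 other genes compared, beside 22.9% of all genes, and 0 were higher, beside 10.5%. BC051537 begins before H2-Oa and overlaps it on the opposite strand. Reads were counted on both strands, so the reads of BC051537 may in part be those of H2-Oa. Psmb9, a subunit of the immunoproteasome, stood at 23.2 RPKM in the heart library, 122 in liver and 115 in kidney, and Tap1, a peptide transporter subunit, at 4.14, 7.85 and 15.7. Brd2, a chromatin reader next to H2-Oa, was nearly level at 24.6, 26.5 and 28.7 RPKM. Neighbouring genes of the region thus differed in range, wide for H2-Oa and narrow for Brd2 and H2-DMa. In all 3 heart was lowest and kidney highest in RPKM as given. For Brd2 the differences were small, at -0.10 for heart minus liver and -0.21 for heart minus kidney. The medians of all genes were -0.16 and -0.23, and the order of Brd2 under other scalings was not tested.

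**Figure D4:**
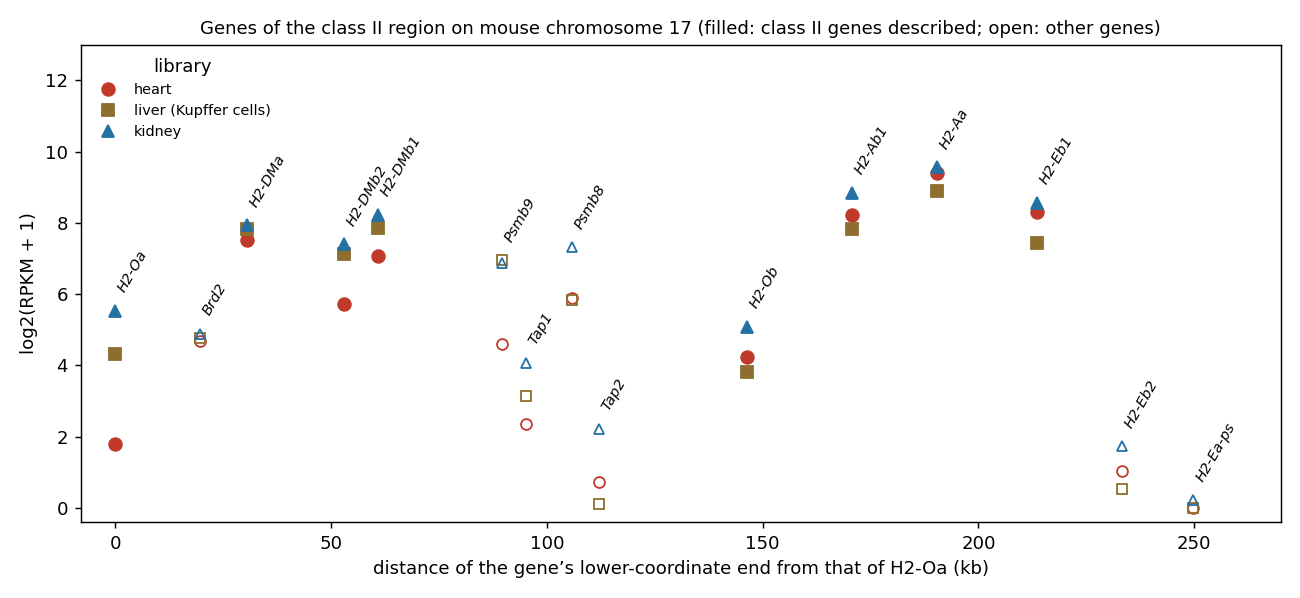
log2(RPKM + 1) of the genes of the class II region in heart, liver and kidney against distance from H2-Oa in kb, with class II genes described here filled and other genes open. H2-Oa, at 0 kb, spans the widest range, while the points of Brd2 and those of H2-DMa beside it lie close together. BC051537 is not drawn.

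Genes that supply Ciita with its signals and partners were read from lists. Of 9 genes of Ciita induction, 4 were lower in heart than in kidney by at least 2-fold and 2 were higher, beside 22.9% and 10.5% of all genes. The median of the 9 was -0.985. With a pseudocount of 5 the counts were 2 lower and 1 higher, beside 8.57% and 3.8% of all genes. Irf1, an interferon-induced factor that binds promoter IV, stood at 65.9 RPKM in heart, 23.2 in liver and 209 in kidney. Usf1, which works beside it at that promoter, stood at 2.52, 18.7 and 36.0 RPKM. Jak2, a kinase of the interferon-γ receptor, went the other way, at 16.3 RPKM in heart, 3.09 in liver and 3.07 in kidney. The receptor chain Ifngr1 stood at 195, 196 and 290.0 RPKM. Kidney against liver, 1 of the 9 (Irf1) was at least 2-fold higher and 0 were lower, beside 24.2% and 17.7% of all genes.

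The enhanceosome that CIITA docks onto had 7 genes on the list, of which 6 could be compared. Heart against kidney, 1 was at least 2-fold higher and 2 were lower, beside 10.5% and 22.9% of all genes. Nfyb, a subunit of the Y box factor NF-Y, stood at 34.2 RPKM in heart, 3.05 in liver and 13.5 in kidney. The other NF-Y subunits were lowest in the heart, Nfya at 2.52, 3.78 and 3.70 RPKM and Nfyc at 1.34, 6.74 and 7.13. Rfxank, a subunit of the X box complex RFX, stood at 1.62, 24.6 and 8.37 RPKM, but it shares 33.8% of its exon bases with Nr2c2ap on the opposite strand. The other RFX subunits were low in each library, Rfx5 at 0.712, 1.77 and 1.83 RPKM and Rfxap at 0.898, 0.72 and 0.775. Creb1, which binds the X2 box, stood at 10.8, 4.05 and 10.9 RPKM. These genes had no common order.

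Genes that feed peptide to class II were mostly abundant, and few differed by 2-fold. Of 11 endosomal proteases, reductases and their inhibitor, 0 differed 4-fold in any comparison. At 2-fold, 0 were higher and 1 was lower in heart than in kidney, beside 10.5% and 22.9% of all genes. In heart against liver 1 was higher and 1 lower, beside 17.9% and 24.9%, and in kidney against liver 1 was higher and 2 were lower, beside 24.2% and 17.7%. Ctss, the cathepsin that makes the last cuts of the invariant chain, stood at 448, 507 and 456 RPKM in heart, liver and kidney. Ctsz, a carboxypeptidase, stood at 240.0, 82.9 and 311 RPKM and was lowest in the liver, as the classical chains were. Ifi30, the thiol reductase that unfolds disulfide-bonded antigen, was highest in the liver, at 125, 285 and 110 RPKM. Ctsl was lowest in the kidney library, at 98.03, 130.3 and 63.4 RPKM, and shares 27.5% of its exon bases with other genes. All of the 11 but Ctse, Ctsl and Sppl2a had over 1 read per bp in each library.

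Among 5 genes that act on surface class II, Cd83, which shields class II from the ubiquitin ligase MARCH1, stood at 391 RPKM in heart, 115 in liver and 338 in kidney. Il10ra, a receptor chain for the class II-lowering cytokine interleukin 10, stood at 89.7, 101 and 228 RPKM. Of the 5, 1 was higher and 1 lower in heart than in kidney by at least 2-fold, beside 10.5% and 22.9% of all genes. In kidney against liver 2 were higher and 1 lower, beside 24.2% and 17.7%. Tmem127, a membrane protein, stood at 21.0, 33.9 and 36.1 RPKM. March1 itself was nearly level, at 34.6, 49.4 and 47.8 RPKM.

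Other antigen-presenting cells also carry class II, so their markers are given beside these levels. The 9 B cell markers summed to 106.5 RPKM in heart, 363 in liver and 187 in kidney. In the kidney Ms4a1, Blk, Pax5 and Fcmr had 0 reads, Cd79a had 1 and Ebf1 had 46, while Cd79b stood at 168 RPKM and Bank1 at 18.6. In the liver Cd79a stood at 34.1 RPKM and Cd79b at 170, with Pax5 and Fcmr at 0 reads. Bank1 stood at 151 RPKM in that library, and Blk had 153 reads, Ebf1 100 and Ms4a1 88. In the heart Pax5, Blk and Fcmr had 0 reads and Bank1, at 71.0 RPKM, was the most abundant. Cd79b stood at 32.9 RPKM in the heart library, and Ms4a1 had 62 reads, Cd79a 10 and Ebf1 2. The part of B cells in the values of each library was not tested.

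The 10 dendritic cell markers summed to 310 RPKM in heart, 29.7 in liver and 88.6 in kidney, led in the heart by Cd209a at 270.1 RPKM. Cd209a had 0 reads in the liver and stood at 10.9 RPKM in the kidney library. Itgax, which encodes CD11c, was highest in the kidney, at 6.93, 3.71 and 36.2 RPKM, and so were Clec9a at 0.126, 1.29 and 7.24 and Batf3 at 1.37, 10.6 and 12.2. Flt3, a receptor of dendritic cell precursors, had 1, 0 and 0 reads, and Zbtb46, a factor of classical dendritic cells, had 83, 0 and 6. Itgax, Clec9a, Batf3, Dpp4 and Xcr1, 5 of the 10, were highest in the kidney as H2-Oa and Ciita were, beside 37.3% of all genes. Siglech, of plasmacytoid dendritic cells, was highest in the heart, at 15.5, 1.69 and 5.07 RPKM, and Ccr7 was lowest in the kidney, at 9.20, 9.31 and 3.66. The part of dendritic cells in the kidney values was not tested.

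**Figure D5:**
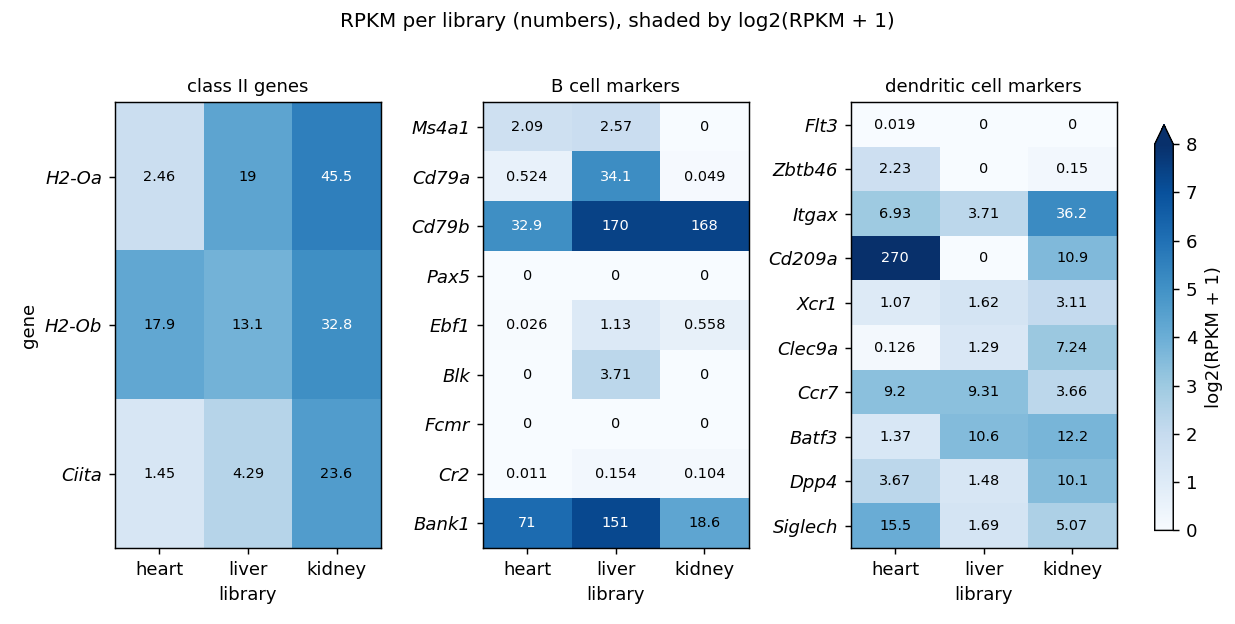
RPKM (numbers) of H2-Oa, H2-Ob and Ciita, of 9 B cell markers and of 10 dendritic cell markers in heart, liver and kidney, shaded by log2(RPKM + 1). In the kidney column Ms4a1, Blk, Pax5, Fcmr and Flt3 are at 0, Cd79b is at 168 RPKM, Itgax at 36.2 and H2-Oa at 45.5.

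The 8 endothelial markers summed to 7.35 RPKM in heart, 277 in liver and 8.47 in kidney. Clec4g and Stab2, of liver sinusoidal endothelium, which also displays class II, stood at 129 and 57.5 RPKM in the liver and had 0 reads in the kidney library. In the heart Clec4g had 22 reads and Stab2 had 0. Pecam1, which leukocytes also carry, was the most abundant of the 8 in the heart, at 3.15 RPKM, and in the kidney, at 7.89, beside 25.8 in the liver, and Egfl7 had 0 reads in the kidney library. The liver library, with the most endothelial transcript, was lowest in H2-Aa, H2-Ab1, H2-Eb1, H2-Ob and Cd74, and the part of endothelium in its values was not tested. The sort took cells without Ly6C, and the 3 monocyte markers summed to 256, 400 and 238 RPKM in heart, liver and kidney, with Ly6c2 at 9.74, 8.41 and 5.58. Ccr2, a chemokine receptor of monocytes and of macrophages that descend from them, was highest in the kidney, at 117, 54.2 and 227 RPKM. Plac8 was lowest there, at 129, 337 and 5.69 RPKM. The part of monocyte-derived cells was not tested.

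The genes most like H2-Ab1 and Ciita in course were sought among genes with at least 10 RPKM in each library, by Euclidean distance of log2(RPKM + 1) after centring over the 3 libraries. Nearest to H2-Ab1 of 2915 genes were Mfap1a, Emc4, Zfp36l2, Atp5a1 and Ppp1ca, at distances of 0.03 to 0.08. Of the class II genes, H2-Ob came nearest to H2-Ab1, at rank 29 (distance 0.18), followed by Cd74 at rank 77, H2-Eb1 at rank 117 and H2-Aa at rank 122. Nearest to Ciita of 2916 genes were Rpl36, Erp29, Parvg, Unc93b1 and Rnase6, at distances of 0.30 to 0.87. H2-DMb2 was the class II gene nearest to Ciita in that comparison, at rank 86 (distance 1.48), and H2-Oa, at 2.46 RPKM in the heart, was outside it. With 3 libraries many genes share a course, and these distances describe likeness in 3 values only.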

How the data were processed

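The deposited values are RPKM made by the authors for 34711 RefSeq transcripts on mm10, per the file headers with the HOMER program analyzeRepeats.pl, counting reads over exons on both strands with -pc 3, a limit of 3 tags per position. The columns are named FPKM. CASAVA, STAR and mm10 are named in the submitters' processing notes, with no version, which is not given in the sources used here. Per the labels, total RNA of sorted cells was amplified with a kit for low input.

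RPKM times exon length came in steps, which gave reads. Of values of up to 500 reads, 99.97% (heart), 99.88% (liver) and 99.95% (kidney) lay within 0.1 of a whole read. Totals were 14460631, 16743416 and 15550832 reads over all transcripts and 8751978, 10373696 and 9485368 over 1 transcript per gene, which was the longest coding row of a symbol, or the longest noncoding row where it had none. No count test was possible with 1 library per tissue. Genes with RPKM of at least 1 in some library were compared on log2(RPKM + 1). Intervals are exact 95% Poisson intervals for levels and Clopper-Pearson intervals of the share of reads for ratios. Exon overlap, first exons and shared stretches of 50 bases come from GENCODE M21 (mm10). Depth recovery and calls were tested on simulated data. Python 3.11.15, pandas 2.3.3, numpy 2.4.6 and scipy 1.17.1 were used.

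The genes and lists were chosen with earlier results of these data known. All 10 class II genes are named. From each of 4 pathway lists up to 3 genes with the largest difference and RPKM of at least 10 in 1 library were named, and from marker lists the most abundant and those at 0 reads. Ifngr1, Nfya, Nfyc, Rfx5, Rfxap, Ctss, March1, further markers and the genes of the region were added after their values were seen, as background to the text. Some listed genes are not reported here and were left out of the lists. The symbol H2-Ea was not matched, and the table lists it as H2-Ea-ps. Alternatives were pseudocounts of 0.1 and 5, TPM and median ratio scaling, the transcript with the highest mean RPKM, and no filter on low values.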

Additional observations from a re-analysis of the deposited data

How the results depend on the processing

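The number of class II genes highest in the kidney library was 10 in each setting except median ratio scaling, where it was 9 because H2-Aa changed places (heart minus kidney 0.04 against -0.16). A pseudocount of 5 shrinks low values by construction. With it, 0 of the 10 were at least 4-fold lower in heart than in liver (H2-Oa at -1.69), beside 2.36% of all genes. At that setting 0 of the 10 were at least 4-fold higher in kidney than in liver (Ciita at 1.62), beside 1.77%. With TPM and with median ratio scaling, 1 gene (H2-Eb1, at 1.05 and 1.10) was at least 2-fold higher in heart than in liver. Over all genes, 24.7% and 21.3% were higher by that rule. TPM and median ratio scaling also raised heart minus liver for H2-Aa (0.49 as given, 0.67 and 0.73) and H2-Ab1 (0.39, 0.57 and 0.63). H2-Oa and Ciita went lower with TPM, at -2.64 and -1.235, and higher with median ratio scaling, at -2.33 and -0.943. The other counts of class II genes at 2-fold and 4-fold stayed within 1.5 times of those given, with H2-DMb1 at -0.96 for heart minus kidney under median ratio scaling. The share of all genes called moved more: for at least 4-fold lower in heart than in kidney it was 5.10% as given, 13.9% and 0.914% with pseudocounts of 0.1 and 5, 10.9% with TPM and 2.40% without a filter. Of 180 values of single genes under these settings, 49 moved beyond counting error and 0 of those of at least 1 log2 unit changed sign. Of 96 counts over pathway lists, 17 moved by over 1.5 times. No paired analysis was possible because each tissue has 1 library. Depth limits Ciita and H2-Oa in the heart most, at 118 and 37 reads.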
